A study of Mus musculus with 6 samples.

Results

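The 10 genes described here are the constant region genes of mouse antibodies and the gene of the joining chain, chosen by symbol: the heavy chain genes *Ighm*, *Ighd*, *Ighg1*, *Ighg2b*, *Ighg2c*, *Ighg3*, *Ighe* and *Igha*, the kappa light chain gene *Igkc*, and *Jchain*. All 10 were found among the 55401 gene identifiers of the count tables, of which 36318 had at least 1 count in at least 1 of the 6 libraries. RNA came from whole tibias of male mice at 8 weeks of age. The 3 Atrx-cKO mice were Osterix-Cre; Atrxf/y, with a floxed *Atrx* allele on their X chromosome and a Cre transgene that the *Sp7* (Osterix) promoter drives in preosteoblasts, and the 3 control mice were Atrxf/y without Cre. Mice were kept on doxycycline, which keeps this Tet-off transgene silent, from conception until 3 weeks of age. No library came from mice with the transgene alone, so the transgene and the deletion cannot be told apart here. The tibias were snap-frozen and pulverized, and no removal of marrow is described, so RNA of cells other than those the transgene targets is in each library.

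An antibody is made of paired heavy and light chains. A developing B cell joins gene segments into a variable exon, which is transcribed with the constant gene nearest to it, *Ighm*. A mature B cell makes IgM and IgD from 1 long transcript by splicing to *Ighm* or *Ighd*. After activation, class switch recombination deletes DNA so that a downstream constant gene (IgG, IgE or IgA) takes the place of *Ighm*. Plasma cells, many of which live in bone marrow, secrete the product in large amounts, and the joining chain links IgM and IgA units into polymers. The counts are per gene: they do not separate membrane from secreted forms, or rearranged transcripts from the unrearranged ones that a constant gene also gives. In whole tibia, fewer cells of a type and less RNA per cell cannot be told apart.

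Counts on genes ran from 55178546 to 58029939 per Atrx-cKO library (median 56970091) and from 50977777 to 70571655 per control library (median 54395736). CPM below are a gene's counts scaled to these totals. Libraries of 1 genotype differed from each other by more than counting noise. *Atrx* itself was at 168 ± 12.1 CPM (SD, n = 3) for Atrx-cKO against 165 ± 15.8 (SD, n = 3) for control tibias. That count covers the whole gene and all cells of the bone, so it gives no check of the labels. The control 3 library stood apart in skeletal muscle genes (8 genes, 10316 summed CPM, against 666 to 2196 in the other 5).

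The 8 heavy chain genes lie in a row on the minus strand of chromosome 12 in GRCm38 (GENCODE M21), in the order of transcription *Ighm* (ENSMUSG00000076617, 113418558 to 113422730), *Ighd* (ENSMUSG00000104213, 113406604 to 113416324), *Ighg3* (ENSMUSG00000076615, 113356224 to 113361232), *Ighg1* (ENSMUSG00000076614, 113325240 to 113330523), *Ighg2b* (ENSMUSG00000076613, 113302965 to 113307933), *Ighg2c* (ENSMUSG00000076612, 113285325 to 113288932), *Ighe* (ENSMUSG00000087642, 113269260 to 113273248) and *Igha* (ENSMUSG00000095079, 113254830 to 113260236). *Igkc* (ENSMUSG00000076609) is a single exon of 532 bp on the plus strand of chromosome 6, from 70726435 to 70726966. *Jchain* (ENSMUSG00000067149) lies on chromosome 5, minus strand, from 88519809 to 88527891. The annotated lincRNA *Gm30211* overlaps *Igkc* on the same strand but shares 0 exonic bases with it, and no other gene overlaps a member.

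The 4 IgG genes are close copies of each other, and a comparison among them rests on the bases at which they differ. The opening 60 bases of their constant exons, from the GENCODE M21 transcripts, are shown because they let a reader see how alike the copies are. Capitals mark the 22 positions where the 4 are not all the same base.
Ighg1, chr12:113330464-113330523, minus strand: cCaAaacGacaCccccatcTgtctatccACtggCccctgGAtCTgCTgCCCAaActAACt
Ighg2b, chr12:113307874-113307933, minus strand: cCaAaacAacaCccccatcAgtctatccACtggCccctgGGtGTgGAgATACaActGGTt
Ighg2c, chr12:113288873-113288932, minus strand: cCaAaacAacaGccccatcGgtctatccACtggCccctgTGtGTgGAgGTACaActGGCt
Ighg3, chr12:113361173-113361232, minus strand: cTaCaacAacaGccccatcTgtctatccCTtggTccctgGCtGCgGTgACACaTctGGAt
*Ighg2b* and *Ighg2c* differed at 5 of these 60 bases, *Ighg1* and *Ighg2b* at 13, and *Ighg1* and *Ighg3* at 18. Between the shortest annotated transcripts of *Ighg2b* and *Ighg2c* the longest identical run was 78 bases, and between any other pair of heavy chain genes it was at most 41. This run is shown because it is the longest such stretch in these transcripts, and a read within it could not be placed on 1 of the pair. It is not the only shared stretch. Over all annotated transcripts, *Ighg2b* shared 70 windows of 50 bases with *Ighg2c* and 39 with *Ighg3*.
Run shared by Ighg2b and Ighg2c: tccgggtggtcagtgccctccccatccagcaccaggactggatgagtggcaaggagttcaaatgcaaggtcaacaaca
Of all 150-base windows in the members' transcripts, the length of the sequenced reads, 0 were shared with any transcript of another gene. Of 50-base windows, 5.49% of those in *Ighg2c*, 4.15% in *Ighg2b*, 1.58% in *Ighg3* and 0.393% in *Ighg1* were found in another IgG gene, and 0 in the other 6 members. Allelic differences from the reference were not examined.

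Per kilobase of exon, which is needed to set 1 gene against another, *Igkc* was the most abundant member in each of the 6 tibias (236 to 458 CPM per kb), ranking 52 to 96 in the whole table. *Ighm* followed in each tibia (79.6 to 195 CPM per kb), then *Igha* (52.7 to 89.2) and *Ighg2c* (29.0 to 68.4). *Ighg2b* (12.9 to 44.5 CPM per kb) and *Jchain* (17.3 to 31.1) changed places between tibias, as did *Ighg1* (8.54 to 23.2) and *Ighd* (4.46 to 11.9). *Ighg3* and *Ighe* were the lowest in each library. The ranges of *Igkc* and *Ighm* did not overlap, while each gene from *Ighm* down to *Ighd* overlapped the next in this order. The order depends on the length used: the annotated exons of *Ighg2c* add up to 1326 bp and those of *Ighg2b* to 2678 bp, and per kilobase of the shortest annotated transcript *Ighg2b* (a mean of 76.5 CPM per kb over the 6 tibias) stood above *Ighg2c* (55.5), and *Igha* (161) beside *Ighm* (165). Together the 10 genes took 0.0593% to 0.114% of the counts on genes.

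No member passed the test between genotypes. Of the 9 members that passed the filter on low counts, 0 were called at an adjusted p under 0.05 and an absolute log2 fold change of 1 or more (quasi-likelihood test of edgeR, Benjamini-Hochberg adjustment over 20636 genes), where 0.0145% of all tested genes were. The groups of tibias overlapped in CPM for each of these 9, while 9.37% of tested genes had groups that did not overlap. The median log2 fold change of the 9 was 0.12, beside 0.0050 over all tested genes, with 7 values above 0 and 2 below. At an unadjusted p under 0.05 there was 1 member, *Ighg3*, higher in Atrx-cKO, where 1.59% of tested genes were higher, 2.05% lower and 3.64% either. *Ighe* was left out by the filter.

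**Figure D1:**
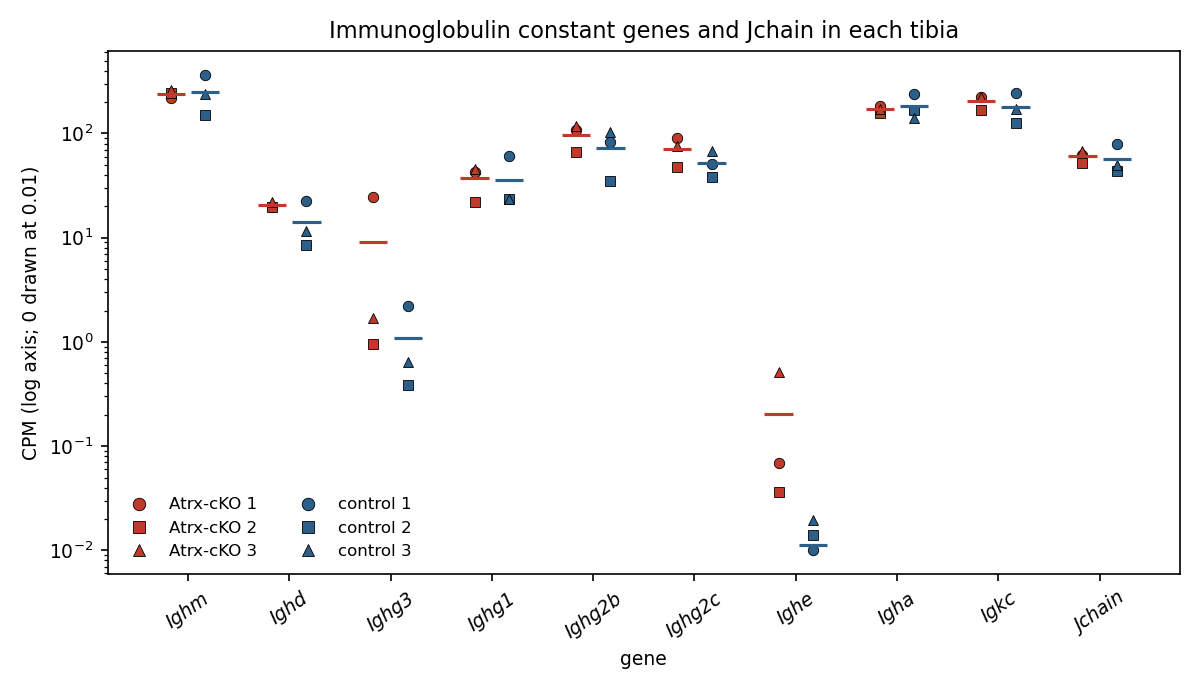
CPM of each member (x axis, heavy chain genes in genomic order, then Igkc and Jchain) in each tibia on a log axis, with a point per mouse and a bar at the mean of each genotype (n = 3). Red is Atrx-cKO and blue is control; the 1 Atrx-cKO tibia at 24.8 CPM of Ighg3 lies far from the other 5, which run from 0.383 to 2.22.

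*Ighm*, the constant gene of IgM and of the B cell's first receptor, was at 217, 246 and 262 CPM in Atrx-cKO mice 1 to 3 and at 367, 150 and 237 CPM in control mice 1 to 3. The 3 Atrx-cKO values lay between the lowest and the highest control. The log2 fold change was -0.11 (SE 0.25, 95% interval -0.70 to 0.47, adjusted p = 0.994, edgeR).

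*Ighd*, the IgD gene of mature naive B cells, was at 19.6, 19.8 and 22.1 CPM in Atrx-cKO and at 22.5, 8.47 and 11.6 CPM in control tibias. Control 1 was above the 3 Atrx-cKO mice and controls 2 and 3 were below them. Its log2 fold change of 0.49 (SE 0.28, 95% interval -0.17 to 1.15, unadjusted p = 0.127, adjusted p = 0.992, edgeR) was the largest after that of *Ighg3*, and the interval spans 0. It was 0.24 without control 2 and 0.91 without control 1, where the unadjusted p was 0.000704 and the adjusted p 0.133 (edgeR).

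The ratio of *Ighm* to *Ighd* separated the genotypes although neither gene did alone. Atrx-cKO tibias had 11.0, 12.4 and 11.8 *Ighm* counts for each *Ighd* count, and control tibias 16.3, 17.7 and 20.5. The 3 Atrx-cKO ratios were all below the 3 control ratios, with means of 11.8 ± 0.682 (SD, n = 3) and 18.2 ± 2.13 (SD, n = 3). The log2 difference was -0.62, with p = 0.1 in an exact two-sided permutation test, which is the smallest p that 3 samples against 3 can give. Adjusted over the 9 sums and ratios compared, p was 0.45 (exact permutation test, Benjamini-Hochberg). No ratio could reach p under 0.05 in this test. Leaving out each tibia in turn gave log2 differences of -0.70 to -0.53.

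**Figure D2:**
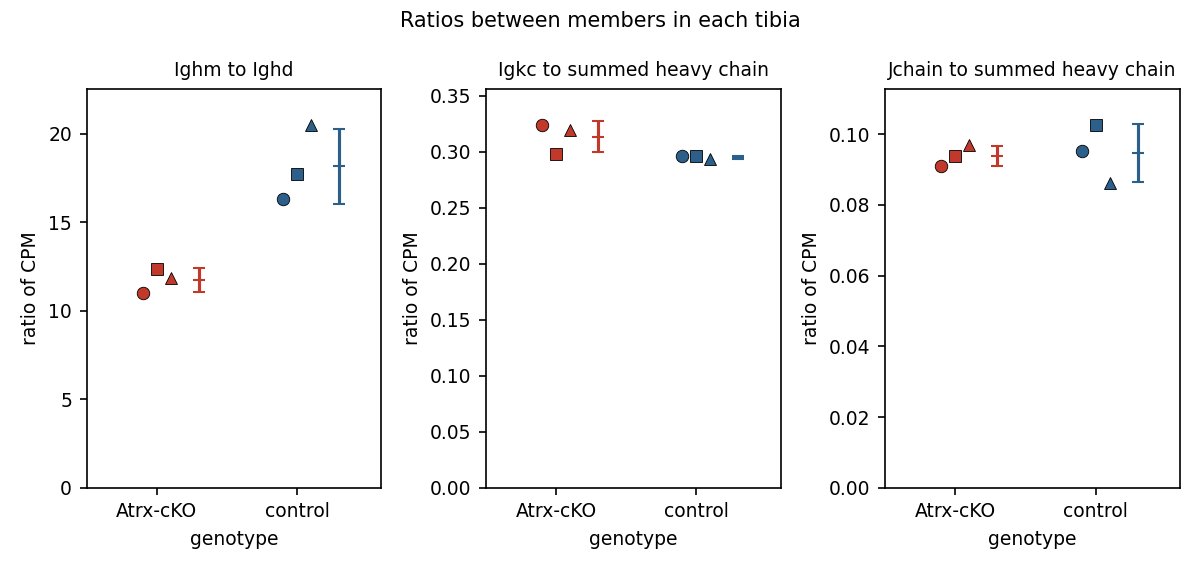
Ratios of CPM (y axes from 0) of Ighm to Ighd, of Igkc to the summed heavy chain genes and of Jchain to the same sum, with a point per mouse (circle, square and triangle for mice 1, 2 and 3 of each genotype) and the mean with SD (n = 3) at the right. The Ighm to Ighd ratio runs from 11.0 to 12.4 in Atrx-cKO and from 16.3 to 20.5 in control tibias, and the Jchain ratios of the genotypes overlap.

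Among the switched isotypes, *Igha*, the gene of IgA, varied least. It was at 182, 158 and 173 CPM in Atrx-cKO and 238, 168 and 141 CPM in control tibias. The groups overlapped, and the log2 fold change of -0.15 (SE 0.15, adjusted p = 0.992, edgeR) had a 95% interval of -0.51 to 0.20, which excludes a change of 1 log2 unit in either direction.

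*Ighg2b*, an IgG gene, was at 107, 65.9 and 119 CPM in Atrx-cKO and 82.0, 34.6 and 103 CPM in control tibias. Its close copy *Ighg2c*, the gene that the reference strain carries in the place of the *Ighg2a* of other strains, was at 90.6, 47.2 and 75.8 CPM in Atrx-cKO and 50.6, 38.4 and 67.2 CPM in control tibias. For both, mouse 2 of each genotype was the lowest of its group. The log2 fold changes were 0.34 (SE 0.38, 95% interval -0.54 to 1.23) for *Ighg2b* and 0.38 (SE 0.28, 95% interval -0.27 to 1.03) for *Ighg2c*, both with an adjusted p of 0.992 (edgeR). Leaving out each tibia gave 0.013 (without control 2) to 0.71 (without control 3) for *Ighg2b* and 0.15 (without Atrx-cKO mouse 1) to 0.63 (without control 3) for *Ighg2c*. The ratio of *Ighg2b* to *Ighg2c* was 1.18 to 1.57 in Atrx-cKO and 0.90 to 1.62 in control tibias (exact two-sided permutation p = 0.9).

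*Ighg1*, the IgG gene known for its use after interleukin 4 signals, was at 43.0, 22.1 and 45.9 CPM in Atrx-cKO and 60.2, 23.6 and 23.5 CPM in control tibias. Each genotype thus held both low and high tibias, and the groups overlapped. The log2 fold change was 0.012 (SE 0.39, 95% interval -0.89 to 0.91, adjusted p = 0.999, edgeR).

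*Ighg3*, the IgG gene known for responses to carbohydrate antigens, was high in 1 tibia. Its counts were 1440, 53 and 96 in Atrx-cKO mice 1 to 3 and 121, 27 and 33 in control mice 1 to 3, or 24.8, 0.961 and 1.69 CPM and 2.22, 0.383 and 0.647 CPM. The 95% Wilson interval of the 1440 counts was 23.6 to 26.1 CPM, and those of the other 5 tibias ended at or below 2.66 CPM, an interval that covers counting error only. Control 1 was above Atrx-cKO mice 2 and 3. The log2 fold change over all 6 libraries was 3.08 (SE 1.27, 95% interval 0.13 to 6.03, unadjusted p = 0.0425, adjusted p = 0.992, edgeR), and it was 0.25 without Atrx-cKO mouse 1. *Ighg3* spread more between mice of 1 genotype than 99.8% of tested genes.

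*Ighe*, the gene of IgE, was at the edge of detection. It had 4, 2 and 29 counts in Atrx-cKO and 0, 1 and 1 in control tibias, so that the groups did not overlap. In control 1 the 0 counts allow up to 0.0552 CPM (3 counts), and the 2 highest 95% Wilson bounds of the controls, 0.0803 and 0.111 CPM, lie above the measured 0.0689 and 0.0362 CPM of Atrx-cKO mice 1 and 2. Only the 0.509 CPM of Atrx-cKO mouse 3, with a lower bound of 0.354 CPM, stood above that counting error. No fold change was computed for *Ighe*.

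*Igkc* and *Jchain* kept close to the heavy chain genes in each mouse. *Igkc*, the constant exon of kappa light chains, was at 222, 167 and 223 CPM in Atrx-cKO and 244, 126 and 171 CPM in control tibias. Control 1 was the highest and control 2 the lowest, as for the summed heavy chain genes, which were at 684, 560 and 700 CPM and at 823, 424 and 583 CPM in the same order of mice. The log2 fold change of *Igkc* was 0.12 (SE 0.21, 95% interval -0.36 to 0.61, adjusted p = 0.992, edgeR).

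*Igkc* counts per heavy chain count were 0.324, 0.298 and 0.319 in Atrx-cKO and 0.296, 0.296 and 0.293 in control tibias. The groups did not overlap, by the gap between 0.298 and 0.296. The log2 difference was 0.087 (exact two-sided permutation p = 0.1, adjusted p = 0.45 over the 9 sums and ratios).

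*Jchain*, which encodes the joining chain of polymeric IgM and IgA, was at 62.3, 52.4 and 67.8 CPM in Atrx-cKO and 78.4, 43.5 and 50.2 CPM in control tibias. It had a log2 fold change of 0.029 (SE 0.18, 95% interval -0.39 to 0.45, adjusted p = 0.997, edgeR). Its ratio to the summed heavy chain genes was 0.0911, 0.0937 and 0.0969 in Atrx-cKO and 0.0952, 0.103 and 0.0861 in control tibias (exact two-sided permutation p = 0.9). Against *Ighm* and *Igha* alone, the partners of the joining chain, the ratio was 0.147 ± 0.0151 (SD, n = 3) for Atrx-cKO against 0.133 ± 0.0035 (SD, n = 3) for control tibias (exact two-sided permutation p = 0.3).

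**Figure D3:**
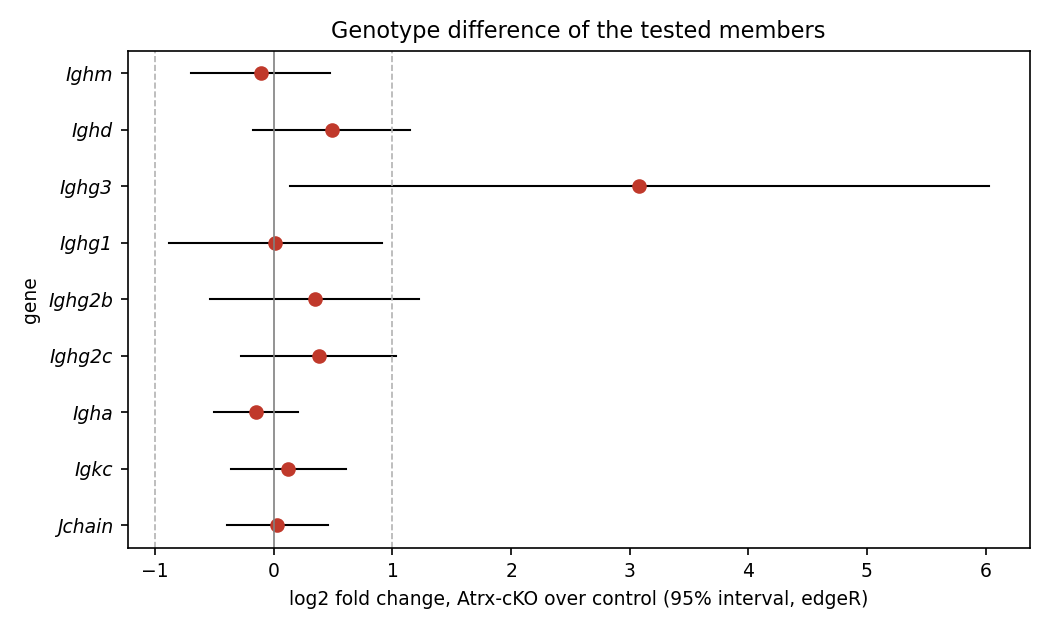
Log2 fold change of Atrx-cKO over control (x axis) with its 95% interval for the 9 members tested by edgeR, heavy chain genes in genomic order from the top; dashed lines mark a change of 1 log2 unit. The 8 intervals other than that of Ighg3 include 0, and Ighg3 runs from 0.13 to 6.03.

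As shares of the summed heavy chain CPM, *Ighm* made up 31.7%, 43.9% and 37.4% in Atrx-cKO mice 1 to 3 and 44.6%, 35.4% and 40.6% in control mice 1 to 3. *Igha* made up 26.7%, 28.2% and 24.7% in Atrx-cKO and 28.9%, 39.7% and 24.1% in control tibias. The 4 IgG genes together made up 38.8%, 24.3% and 34.6% in Atrx-cKO and 23.7%, 22.9% and 33.3% in control tibias. So IgM, IgA and IgG transcripts each held a large part in each tibia, and their order changed from mouse to mouse within a genotype. The order also depends on the scale: per kilobase of exon, control 2 held 40.1% *Ighm* and 31.8% *Igha*, with *Ighm* above *Igha*.

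The mean IgG share was 32.6% ± 7.44 (SD, n = 3) for Atrx-cKO against 26.6% ± 5.80 (SD, n = 3) for control tibias, with an exact two-sided permutation p of 0.2 and, adjusted over the 10 shares compared, 0.667. The mean *Ighm* share was 37.7% ± 6.14 (SD, n = 3) against 40.2% ± 4.63 (SD, n = 3) (exact permutation p = 0.6), and the mean *Igha* share 26.5% ± 1.74 (SD, n = 3) against 30.9% ± 8.0 (SD, n = 3) (exact permutation p = 0.5). The switched genes as a whole, IgG, IgE and IgA, made up 59.1% ± 6.48 (SD, n = 3) and 57.6% ± 4.99 (SD, n = 3) (exact permutation p = 0.8). With 3 samples against 3 no share could reach p under 0.05 in this permutation test, and the genotypes overlapped in each of these 4. The IgG difference of 5.97 percentage points was 2.87 without Atrx-cKO mouse 1 and 10.1 without Atrx-cKO mouse 2, and the *Igha* difference of -4.41 points was -0.0051 without control 2 and -7.82 without control 3.

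The *Ighd* share was 2.87%, 3.55% and 3.16% in Atrx-cKO and 2.74%, 2.0% and 1.98% in control tibias. It was higher in each Atrx-cKO tibia than in each control tibia, by a margin of 2.87% against 2.74% at the nearest, with an exact two-sided permutation p of 0.1 and an adjusted p of 0.5 over the 10 shares. The *Ighd* share and the *Ighm* to *Ighd* ratio hold the same *Ighd* counts and are not separate results. The *Ighg3* share was 3.63% in Atrx-cKO mouse 1 and 0.0902% to 0.270% in the other 5 tibias, and *Ighg1* held 3.96% to 7.31% over the 6 tibias. *Ighe* held at most 0.0727%.

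**Figure D4:**
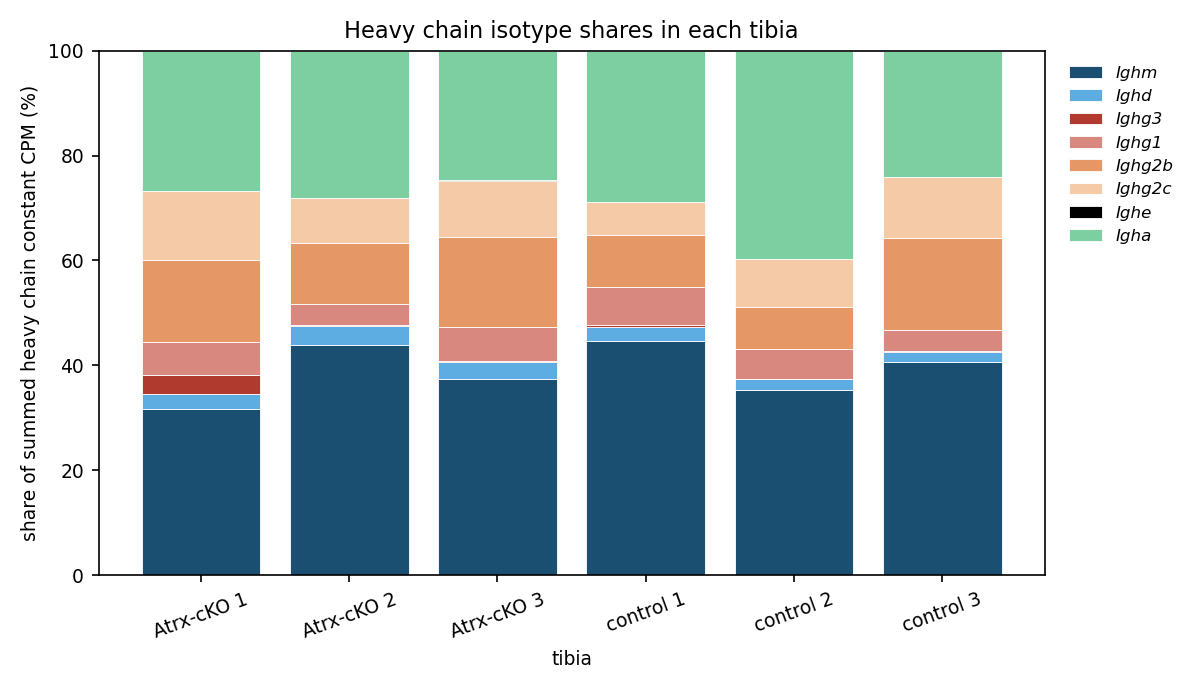
Share (%) of the summed CPM of the 8 heavy chain constant genes taken by each gene, 1 stacked bar per tibia. Ighm (31.7% to 44.6%), Igha (24.1% to 39.7%) and the IgG genes (22.9% to 38.8%) fill most of each bar, and a visible Ighg3 band (3.63%) is found in Atrx-cKO mouse 1.

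The members varied between mice of 1 genotype more than most genes. The SD of log2 values within genotype was 0.66 for *Ighg2b* and 0.64 for *Ighg1*, wider than in 89.8% and 89.1% of tested genes, against a median of 0.21 over all tested genes. It was 0.41 for *Ighm*, 0.29 for *Jchain* and 0.23 for *Igha*, at percentiles 76.9, 64.0 and 54.5. For *Ighm* the SD was 0.12 within Atrx-cKO and 0.57 within control mice, and for *Ighd* 0.085 and 0.64. Control 1 was the highest tibia for 6 of the 10 members and control 2 the lowest for 7, and both held for 4.

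Summed erythroid and osteoblast markers followed this pattern among the control tibias, in opposite directions. Summed CPM of the 5 erythroid genes were 4202, 3280 and 3762 in Atrx-cKO and 5443, 1935 and 2377 in control tibias, again highest in control 1 and lowest in control 2. Summed CPM of the 7 osteoblast genes were 114997, 118372 and 121312 in Atrx-cKO and 113322, 173632 and 154508 in control tibias, lowest in control 1 and highest in control 2. That sum is carried by the type I collagen genes, and other genes of the list were lowest in Atrx-cKO mouse 1 or highest in control 3. Other lists had other orders: summed neutrophil genes were highest in Atrx-cKO mouse 1 (12605 CPM) and lowest in control 3 (6786), summed T cell genes were high in controls 1 and 2 (37.9 and 37.8 CPM), and summed osteoclast genes were highest in control 3 (3509 CPM). In the fit, 5 of 5 erythroid and 7 of 7 neutrophil genes had log2 fold changes above 0 (medians 0.12 and 0.20), and 7 of 7 osteoblast, 6 of 6 osteoclast and 8 of 8 skeletal muscle genes below 0 (medians -0.34, -0.37 and -1.58), with 0 genes called in each list. The muscle sum was high in control 3 alone (10316 CPM). Controls 1 and 2 (753 and 747 CPM) lay within the Atrx-cKO range of 666 to 2196 CPM. The 7 T cell genes had a median of 0.050. The part of tissue composition in the members' values was not tested.

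The B cell genes (17 genes, among them the receptor partners *Cd79a* and *Cd79b*) were at 633, 680 and 769 summed CPM in Atrx-cKO and 786, 459 and 540 summed CPM in control tibias. The order of the control tibias was that of the members' sum. In the fit, 17 of 17 had a log2 fold change above 0, with a median of 0.18 beside 0.0050 over all tested genes, and 0 of 17 were called or had an unadjusted p under 0.05 (edgeR). The 3 with the highest mean CPM, *Cd37*, *Ebf1* (a factor of early B cell identity) and *Cd72*, had log2 fold changes of 0.16, 0.18 and 0.049. The genes of B cell precursors (8 genes) had summed CPM of 59.1, 95 and 109 in Atrx-cKO and 115, 49.3 and 81.4 in control tibias. Their median log2 fold change was 0.021, and *Rag1*, which cuts DNA for segment joining, *Il7r* and *Dntt* had -0.035, 0.30 and -0.034. Atrx-cKO mouse 1, the tibia with high *Ighg3*, had the lowest precursor sum of its group.

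The plasma cell and secretion genes (19 genes) differed little in their sum between tibias. Summed CPM ran from 975 to 1081 over the 6 tibias, while the members' sum ran from 593 to 1145. The list's sum is carried by genes of protein secretion that other cells also use: *Xbp1*, a factor of the secretory pathway, *Edem1* and *Txndc5* were the 3 highest, with log2 fold changes of 0.095, 0.054 and -0.098. Of the 17 tested genes 0 were called, and the median was 0.081. *Ell2*, an elongation factor that plasma cells use to make secreted heavy chain messages, was named after its value was seen. It was at 128 ± 11.1 CPM (SD, n = 3) for Atrx-cKO against 154 ± 16.7 (SD, n = 3) for control tibias. Its log2 fold change was -0.34 (unadjusted p = 0.0231, adjusted p = 0.992, edgeR). It was the 1 gene of the list with an unadjusted p under 0.05, where 2.05% of all tested genes were lower at that p. Its control values were 143, 173 and 146 CPM, highest in control 2. Other genes of the list, also named after their values were seen, were mixed in level and in their order among the controls. *Pou2af1*, a coactivator of antibody genes, was at 25.9, 31.0 and 39.5 CPM in Atrx-cKO and 42.4, 15.8 and 28.6 CPM in control tibias, and *Irf4*, a factor plasma cells need, at 14.6, 18.7 and 25.9 CPM and 24.8, 11.8 and 17.1 CPM. Both had the control order of the members' sum, though not of each member, with control 1 high and control 2 low. So did *Slamf7* at 12.1, 4.72 and 7.63 CPM in the controls. *Sdc1* (CD138) and *Prdm1* had means of 68.2 and 18.5 CPM over the 6 tibias without that order, and *Tnfrsf17*, the BCMA receptor, was at 0 to 0.294 CPM. Genes of the list not named here were also split, some with that order and some without it.

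**Figure D5:**
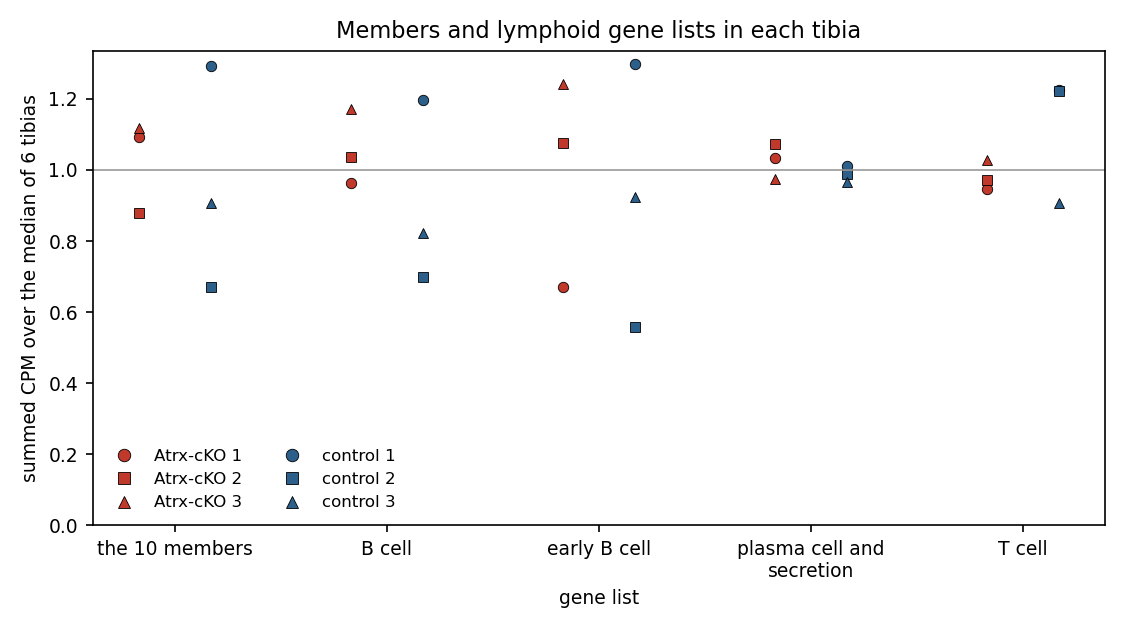
Summed CPM of the 10 members and of 4 lymphoid gene lists in each tibia, divided by the median over the 6 tibias (y axis from 0; line at 1), with a point per mouse. The members run from 0.669 to 1.29 times their median, the B cell genes from 0.698 to 1.20, and the plasma cell and secretion genes from 0.967 to 1.07.

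No class switching gene passed the test. Of 19 listed, 18 matched a symbol and were tested, 0 were called or had an unadjusted p under 0.05, and the median log2 fold change was 0.050. The repair factors *Trp53bp1*, *Rif1* and *Msh6*, the highest of the list, had log2 fold changes of -0.048, 0.11 and 0.085.

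The heavy and kappa variable segments gave a second view of the members' transcripts. Lambda transcripts hold no member. The lambda constant genes *Iglc1*, *Iglc2* and *Iglc3* had log2 fold changes of 0.37, 0.34 and 0.33, with 0 of 3 called, and summed CPM of the 4 lambda genes were 18.6, 18.1 and 21.3 in Atrx-cKO and 24.2, 8.25 and 11.9 in control tibias. Kappa took 89.8% to 93.6% of light chain constant CPM per kb, as is usual in the mouse. Summed heavy chain variable segments (113 genes) were at 0.148 to 0.186 of the summed heavy chain constant CPM, and summed kappa variable segments (100 genes) at 0.620 to 0.701 of *Igkc*. Reads that join a variable segment to a constant exon touch 2 genes, and how the counting treated them is not given in the sources used here. Ambiguous reads were 0.644% to 0.701% of all entries.

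The genes most like each member across the 6 tibias, by the root mean square (RMS) difference of centred log2 CPM, were mixed in kind, and these likenesses are descriptions over 6 libraries that share their depth and tissue content. *Ighd* was closest to *Gm29439* (RMS 0.048), *Fcer2a*, the CD23 receptor of mature B cells (0.10), and *Gm49085*. *Ighm* was closest to *Fn3k* (0.083), *Ypel4* and *Vpreb3*, a gene of B cell precursors. *Igha* was closest to *Bcorl1* (0.040), *Nfkbid* and *Mast1*, *Jchain* to *Agfg2* (0.047) and *Ccdc24*, and *Igkc* to *Klhl3* (0.074), *Mettl18* and *Angptl8*. *Ighg1* was closest to *Il9r* (0.14), *Fcer1a* and *Gm15232*, *Ighg2b* to *Rpl18-ps2* (0.13), *Hoxd4* and *Gm2991*, and *Ighg2c* to *Ptchd4* (0.13), *Frmd7* and *Gm16853*. *Ighg3* had no close partner, with *Ggt1* nearest at 0.69, then *Lipg* at 1.02 and the variable segment *Ighv1-12* at 1.09. *Ggt1* was at 13.5, 0.435 and 0.579 CPM in Atrx-cKO and 1.21, 0.638 and 0.510 CPM in control tibias, *Lipg*, a lipase, at 79.0, 14.8 and 10.4 CPM and 9.76, 8.98 and 9.91 CPM, and *Ighv1-12* at 4.15, 0.616 and 1.16 CPM and 2.33, 0.0283 and 0.412 CPM. All 3 were highest in Atrx-cKO mouse 1.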

How the data were processed

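Tibial RNA of 3 Atrx-cKO (AtrxKO) and 3 control (Ctrl) mice, grouped by the sample labels, was polyA selected and sequenced as 150-base paired reads by GENEWIZ in strand-specific libraries. The authors deposited raw counts per Ensembl gene for each library, and the counts were used as deposited. The submitters' processing notes name GRCm38 and DESeq2. The aligner, counter and counting mode are not given in the sources used here. Summary entries (51.6% to 52.4% on no feature, 3.69% to 4.56% without a unique alignment, 0.644% to 0.701% ambiguous) stayed out of library sizes and tests. GENCODE M21 named 55141 of 55401 identifiers.

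Genotypes were compared with edgeR 4.0.16 (TMM, filterByExpr, quasi-likelihood test, genotype alone) in R 4.3.3, with Benjamini-Hochberg adjustment over 20636 genes and calls where the adjusted p was under 0.05 and the absolute log2 fold change 1 or more. Printed CPM are scaled to the counts on genes, without TMM. Shares and ratios were compared with exact two-sided permutation tests over samples (20 arrangements, smallest p 0.1). Nothing says which animals shared a litter, and p-values measure the spread between these samples. Alternatives were other normalizations, no filter, DESeq2 1.42.0, a replicate block, other share scales and leaving out each library; shares per kb of the shortest transcript were added after seeing the data.

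The members and gene lists were chosen with earlier results of these data known. Named genes were the members, the 3 genes of each list with the highest mean CPM (the T cell, neutrophil, erythroid, osteoblast, osteoclast and muscle lists are given as lists only), genes that passed the test, and the 3 genes most like each member; other list genes (Cd79a, Cd79b, Ell2, Pou2af1, Irf4, Slamf7, Sdc1, Prdm1, Tnfrsf17, Pigr, Il21) were named after their values were seen. Some genes that the rule covers are not reported here. Intervals and the allowance of 3 counts for 0 cover counting error only.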

Additional observations from a re-analysis of the deposited data

How the results depend on the processing

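No member was called under any alternative of normalization, filter, test, replicate block or left-out library. DESeq2 gave no p-value for Ighg3 (log2 fold change 3.06), so that gene could not be called in that test. Over all tested genes, 10 were called higher and 13 lower with DESeq2 (3 and 0 with edgeR), 0 higher with the replicate block, 1 lower with no filter, and 0 to 5 higher and 0 to 1 lower when each tibia was left out in turn. Leaving out each tibia turned the direction of small differences. The log2 fold changes ran from -0.36 to 0.19 for Ighm, -0.20 to 0.53 for Ighg1, -0.29 to 0.020 for Igha, -0.065 to 0.33 for Igkc and -0.12 to 0.25 for Jchain, while that of Ighg3 ran from 0.25 (without Atrx-cKO mouse 1) to 4.06. The share differences ran from -5.67 to 0.471 percentage points for Ighm, -0.838 to 0.803 for Ighg1 and -1.58 to 4.89 for the switched genes. The log2 differences ran from -0.10 to 0.37 for the summed heavy chain genes, -0.014 to 0.46 for Igkc CPM, -0.052 to 0.37 for Jchain CPM, -0.074 to 0.052 for Jchain over heavy chains and -0.20 to 0.23 for Ighg2b over Ighg2c. The cause was not tested. No other alternative turned the direction of a member, share or ratio.

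Deviations of same-numbered mice from their genotype means correlated at -0.025, 0.062 and -0.071 over the 20636 genes. Such correlations cannot tell whether same-numbered mice shared a litter or day. With the replicate block 0 members were called. The unadjusted p there was 0.0236 for Ighg2b and 0.00854 for Ighg3, against 0.395 and 0.0425 without the block (edgeR). Their adjusted p with the block was 0.974. With 3 mice a genotype, the 95% intervals of Ighd, Ighg2b, Ighg2c and Ighg3 still hold changes past 1 log2 unit. These data do not exclude such changes, and Ighe was limited by its counts of 0 to 29.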

Other observations

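Among 12 listed genes of receptors and sensors that bind antibodies, 11 were tested, 0 were called or had an unadjusted p under 0.05 (edgeR), and the median log2 fold change was 0.21. The highest by mean CPM were Fcgrt, which protects IgG from breakdown, at 157 ± 15.4 CPM (SD, n = 3) for Atrx-cKO against 152 ± 9.91 (SD, n = 3) for control tibias, Fcer1g, the signalling chain of several Fc receptors, at 90.4 ± 13.3 and 75.2 ± 19.4 CPM (SD, n = 3 each), and Fcgr3 at 52.7 ± 7.51 and 44.4 ± 12.7 CPM (SD, n = 3 each). Pigr, which carries polymeric IgA and IgM across epithelia, had at most 0.0735 CPM.

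Among 11 genes of cytokines that direct switching and of the marrow niche of plasma cells, 8 were tested and 0 called, with a median log2 fold change of 0.035. Cxcl12, the marrow retention chemokine, was at 3612 ± 157 CPM (SD, n = 3) for Atrx-cKO against 3051 ± 561 (SD, n = 3) for control tibias (log2 fold change 0.18, adjusted p = 0.992), Tgfb1 at 254 ± 9.59 and 233 ± 43.3 CPM (SD, n = 3 each), and Cd40 at 9.76 ± 1.44 and 10 ± 0.624 CPM (SD, n = 3 each). Il21 had 0 counts in the 6 libraries, which allows up to 0.0425 to 0.0588 CPM.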
